A study of Mus musculus with 4 samples.

Results

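Fibroblast growth factor (FGF) receptors and the genes that answer extracellular signal-regulated kinase (ERK) were measured in mouse embryonic stem (ES) cells with and without Snai1. The group comprised 10 genes, chosen by name: the ligand Fgf4, the receptors Fgfr1 and Fgfr2, the phosphatases Dusp6 and Dusp4, the inhibitors Spred1, Spry2 and Spry4, and the transcription factors Etv4 and Etv5. The array carried 31 probe sets that its annotation assigned to exactly 1 of these genes, out of 34945 single-gene probe sets for 18193 genes. There were 0 probe sets that listed a member together with another gene. The members and the lists below were chosen with earlier results of these data known. Snai1 knockout ES cells (titles KO.ES) were compared with control ES cells (titles F/F.ES), with 2 Affymetrix arrays each. The labels name the control genotype as control, do not explain F/F, and give the control source name with the words knock out, so every direction rests on the title and the genotype field. Both groups were grown with leukaemia inhibitory factor (LIF) on feeder cells, with no further treatment, and neither strain, clone nor passage is given. The replicates are labelled biological without saying what separated them, so a p-value reflects how far these arrays spread, which may be technical.

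FGF4 made by ES cells binds FGF receptors, and the receptor signals through the adaptors FRS2, GRB2 and GAB1 to RAS, RAF, MEK and ERK. ERK switches on its own inhibitors: DUSP6 removes the activating phosphates from ERK, DUSP4 does so in the nucleus, and Sprouty and SPRED proteins act upstream at the level of RAS and RAF. In ES cells this pathway is known for preparing the cells to leave self-renewal, and in the early embryo for separating primitive endoderm from epiblast. FGFR1 is the main receptor of the epiblast, while FGFR2 is prominent in primitive endoderm and trophectoderm.

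Values are log2 expression values after robust multi-array averaging (RMA), so a difference of 1 is a doubling. Probe sets bind their targets with unequal strength, so a level is compared between arrays and never between probe sets. Snai1 itself lay at 3.79 and 4.04 on the knockout arrays, against 4.41 and 4.69 for control. These 4 values fall inside the range of 2.91 to 4.77 shown by 27 probe sets for Bacillus transcripts, which is used below as the background range, so Snai1 gave no check of the labels. All 10 listed markers of ES cells, among them Pou5f1, Sox2 and Nanog, lay above this range on every array. The mean level of 19 measured markers of feeder fibroblasts was 7.70 and 6.996 in knockout replicates 1 and 2. It was 7.92 and 7.28 in control replicates 1 and 2. Of the 19, 17 lay above background on every array, as did 11851 of all 18193 genes, and none was at background on all 4. These markers were thus measurable, and which cells they came from was not tested. The same arrays differed in the gap between the 3' and 5' control probe sets of Actb, a measure of RNA integrity and labelling, which was 1.11 and 0.80 on the knockout arrays, against 3.02 and 2.97 for control. Whether a member's value comes from more transcript per cell or from more cells of one kind cannot be told apart in bulk RNA.

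Promoter sequence is shown for the 3 genes that passed the test below, Fgfr2, Dusp6 and Spred1, and for Fgf4, whose window holds the letters of a Snail E-box. Each is the 250 bases before the annotated start in RefSeq's GRCm38.p6 table, 5′ to 3′ on the gene's own strand. Capitals mark matches on either strand to the E-box CAGGTG, a sequence that Snail proteins bind, or to CGGAAG, which holds the core bound by ETS factors such as ETV4 and ETV5. The 2 motifs share no overlap in these windows.
Fgfr2 lies at chr7:130266809-130267058, minus strand.
Fgfr2: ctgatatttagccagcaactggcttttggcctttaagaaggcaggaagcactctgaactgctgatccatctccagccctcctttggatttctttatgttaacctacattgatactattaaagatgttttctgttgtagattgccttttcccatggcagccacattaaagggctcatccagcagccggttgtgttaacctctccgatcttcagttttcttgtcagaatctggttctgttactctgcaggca
Dusp6 lies at chr10:99262981-99263230, plus strand.
Dusp6: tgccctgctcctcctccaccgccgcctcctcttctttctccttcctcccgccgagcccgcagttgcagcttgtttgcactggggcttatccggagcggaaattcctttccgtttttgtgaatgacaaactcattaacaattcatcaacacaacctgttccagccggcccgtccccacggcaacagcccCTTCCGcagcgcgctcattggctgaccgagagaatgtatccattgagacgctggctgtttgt
Spred1 lies at chr2:117120821-117121070, plus strand.
Spred1: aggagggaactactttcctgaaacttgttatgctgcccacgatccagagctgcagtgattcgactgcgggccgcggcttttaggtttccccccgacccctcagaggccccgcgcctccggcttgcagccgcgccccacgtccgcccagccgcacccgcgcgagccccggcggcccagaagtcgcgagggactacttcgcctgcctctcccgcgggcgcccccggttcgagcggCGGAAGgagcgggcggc
Fgf4 lies at chr7:144861136-144861385, plus strand.
Fgf4: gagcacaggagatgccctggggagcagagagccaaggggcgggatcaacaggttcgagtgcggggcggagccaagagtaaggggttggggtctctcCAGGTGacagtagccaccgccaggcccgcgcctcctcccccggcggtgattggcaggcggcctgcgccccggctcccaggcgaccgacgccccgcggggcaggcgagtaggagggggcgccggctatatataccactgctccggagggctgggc

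The table held no window for Fgfr1, Dusp4 and Etv4. Spry4 was left out of this reading, though not out of the shares over all windows. Windows were read for 6 of the 10 members, 7 in all because Etv5 has 2. The E-box letters occurred in 1 of these windows, that of Fgf4, where the match begins 154 bases before the start. Over all 32851 promoter windows of this length, 17.2% held CAGGTG. The ETS letters occurred in the windows of Dusp6, 62 bases before the start, and of Spred1, 17 bases before it, against 13.6% of all windows. The windows of Fgfr2, Spry2 and Etv5 held neither of these strings, and other forms of the ETS site were not searched for. These are matches of letters, and binding was not measured here.

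Each gene was first read at its brightest probe set, whose mean over the arrays was highest. All 10 brightest probe sets lay above the background range on every array. Of the 10 genes, 3 fell in the knockout (Fgfr2, Dusp6 and Spred1), 0 rose and 7 did not pass an adjusted p of 0.05, in limma with Benjamini-Hochberg adjustment over 18193 genes. Over all genes tested, 4.14% passed in either direction with 1.98% higher and 2.17% lower. The median log2 difference of the 10 genes was -0.22, against -0.02 over all genes. The knockout arrays both lay below both control arrays for 3 members and above them for 2. Over all genes, 52.3% had groups apart in this way, 29.2% below and 23.1% above. An unadjusted limma p under 0.05 was found for 5 of the 10 members and for 23.9% of all genes. With any 1 array left out, which sets 2 arrays against 1, 0 members passed and the calls over all genes went from 754 to between 4 and 50, while Fgfr2 differed by -0.97 to -0.91, Dusp6 by -0.88 to -0.64 and Spred1 by -0.93 to -0.64. The plot of the brightest probe sets by array shows these levels.

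**Figure D1:**
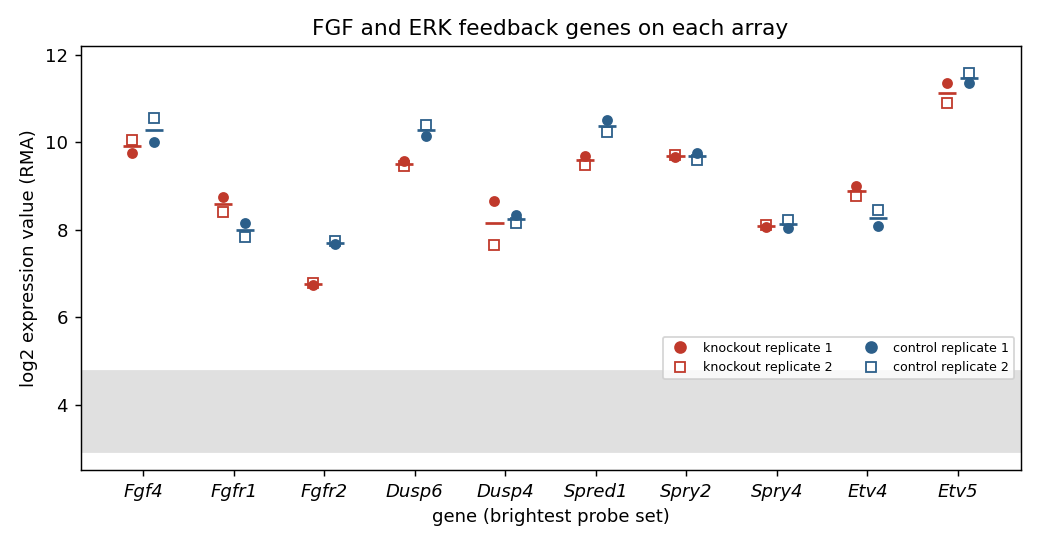
Log2 expression value (vertical axis) of the brightest probe set of each of the 10 genes on the 2 knockout arrays (red) and the 2 control arrays (blue), with replicate 1 filled and replicate 2 open, group means as bars, and the background range of 2.91 to 4.77 shaded. Fgfr2, Dusp6 and Spred1 are lower and Fgfr1 and Etv4 higher on both knockout arrays, while the groups overlap for the other 5 genes.

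Fgf4, the ligand that ES cells secrete, was measured by 4 probe sets. The brightest, 1420086_x_at, lay at 9.75 and 10.05 on the knockout arrays, against 10.01 and 10.55 for control. The groups overlapped, because knockout replicate 2 was above control replicate 1. The log2 difference was -0.38 ± 0.21 (SE, 95% interval -0.86 to 0.10, limma adjusted p = 0.321). Probe set 1420085_at, designed from the same source sequence, read 9.80 and 10.04 against 9.94 and 10.53. Probe set 1450282_at, designed from the RefSeq transcript, read 6.37 and 6.51 on the knockout arrays, against 6.15 and 6.13 for control, so its knockout arrays were both the higher (0.30 ± 0.13, SE, adjusted p = 0.254 over all single-gene probe sets). The remaining probe set, 1449729_at, was within background on all 4 arrays. The gap between the brightest probe set and 1450282_at was 3.38 and 3.54 on the knockout arrays, against 3.87 and 4.42 for control, a difference of -0.68 ± 0.23 (SE, limma adjusted p = 0.137 over 16752 gaps of all genes). The opposite signs of these probe sets therefore did not pass the test of their difference.

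Fgfr1, the receptor through which epiblast cells mainly read FGF4, was higher on both knockout arrays without passing the threshold. Its brightest probe set, 1424050_s_at, lay at 8.76 and 8.40 on the knockout arrays, against 8.14 and 7.83 for control. The lowest knockout value exceeded the highest control value, and replicate 1 was the higher in each group. The log2 difference was 0.59 ± 0.18 (SE, 95% interval 0.17 to 1.01, limma adjusted p = 0.0982), a 1.51-fold ratio. The replicate numbers follow the feeder marker means of 7.70, 6.996, 7.92 and 7.28 in the same arrays, fibroblasts also express Fgfr1, and the part of feeder RNA in this difference was not tested.

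The other probe sets of Fgfr1 divided. Probe set 1425911_a_at read 4.95 and 4.68 on the knockout arrays, against 4.23 and 4.10 for control, a difference of 0.65 ± 0.15 (SE, adjusted p = 0.0805 over all single-gene probe sets), but 3 of its 4 values lay within background. Probe set 1436551_at read 5.67 and 5.45 against 5.59 and 5.85, with overlapping groups (-0.16 ± 0.16, SE). The gap between the brightest probe set and 1436551_at differed between the groups by 0.76 ± 0.24 (SE), which did not pass (limma adjusted p = 0.117).

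Fgfr2, a receptor prominent in primitive endoderm, had the largest difference of the 10 genes at the brightest probe set. Probe set 1433489_s_at lay at 6.75 and 6.77 on the knockout arrays, against 7.67 and 7.73 for control. The 2 arrays of each group were close together, with an SD of 0.02 in the knockout and 0.04 in the control, and the groups did not overlap. The log2 difference was -0.94 ± 0.13 (SE, 95% interval -1.25 to -0.63, limma adjusted p = 0.0283), so the control exceeded the knockout 1.92-fold. Fgfr2 was also the 1 member called when all 34945 probe sets were tested singly (adjusted p = 0.0463), a fit in which 0.79% of all probe sets passed, but not there with an intensity trend in eBayes (adjusted p = 0.0564). Its promoter window above held neither CAGGTG nor CGGAAG on either strand.

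The fall of Fgfr2 was carried by this 1 probe set. Probe set 1420847_a_at, designed from the RefSeq transcript, read 4.65 and 4.70 on the knockout arrays, against 4.75 and 4.99 for control, with 3 of 4 arrays within background. Probe set 1443211_at was within background on all 4 arrays. Both therefore gave levels at or near background in each group. The gap between the brightest probe set and each of these differed by -0.74 ± 0.18 and -0.85 ± 0.17 (SE, limma adjusted p = 0.0748 and 0.0623). With the mean of the 3 probe sets in place of the brightest, Fgfr2 differed by -0.41 ± 0.11 (SE) and did not pass (limma adjusted p = 0.0993).

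Dusp6, the ERK-specific phosphatase and a widely used readout of ERK activity, fell in the knockout. Its single probe set, 1415834_at, lay at 9.57 and 9.45 on the knockout arrays, against 10.15 and 10.39 for control. Both knockout arrays were lower than either control array. The log2 difference was -0.76 ± 0.15 (SE, 95% interval -1.10 to -0.41, limma adjusted p = 0.0441), a control level 1.69 times that of the knockout. Tested among all single-gene probe sets, the same values gave an adjusted p of 0.0627. In the fit by gene with an intensity trend in eBayes, the adjusted p was 0.0513.

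Dusp4, a nuclear phosphatase of ERK, also had a single probe set and did not pass. It lay at 8.66 and 7.64 on the knockout arrays, against 8.33 and 8.16 for control. The knockout arrays lay on either side of both control arrays, and their SD of 0.72 was the widest among the brightest probe sets of the 10 genes. The difference of -0.10 ± 0.30 (SE) had a 95% interval of -0.80 to 0.60, which leaves a change of the size seen for Dusp6 inside it (limma adjusted p = 0.898). Without knockout replicate 2 the difference was 0.41.

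Spred1, which inhibits RAS by bringing neurofibromin to the membrane, fell at its brightest probe set. Probe set 1423160_at lay at 9.69 and 9.48 on the knockout arrays, against 10.51 and 10.22 for control. The groups did not overlap, and the log2 difference was -0.78 ± 0.16 (SE, 95% interval -1.15 to -0.41, limma adjusted p = 0.0461), with the control 1.72 times as high. Its adjusted p was 0.0671 with all probe sets tested singly, and 0.0528 in the fit by gene with an intensity trend in eBayes.

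Spred1 had 8 probe sets, the most of any member, which could be sorted by source sequence. The 3 designed from one source all had both knockout arrays below both control arrays. Beside the brightest, 1423161_s_at read 9.09 and 8.55 on the knockout arrays, against 10.04 and 9.81 for control (-1.11 ± 0.21, SE, adjusted p = 0.0593 over all single-gene probe sets). The other, 1423162_s_at, read 5.99 and 6.06 against 7.41 and 6.37 (-0.87 ± 0.32, SE, adjusted p = 0.187). Probe sets from other sources were closer to 0 or close to background. Probe set 1460116_s_at read 6.94 and 6.24 on the knockout arrays, against 6.72 and 6.49 for control, with the knockout arrays on either side of the control arrays (-0.01 ± 0.24, SE). Probe set 1452911_at read 5.72 and 4.79 against 5.23 and 5.24, again on either side (0.02 ± 0.29, SE).

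For 1428777_at, from the same source as 1452911_at, the knockout arrays read 4.88 and 4.35 and the control arrays 5.27 and 4.89, with 1 value within background. The remaining probe sets, 1443652_x_at and 1445228_at, were within background on all arrays. The gap between the brightest probe set and 1460116_s_at was 2.74 and 3.24 on the knockout arrays, against 3.79 and 3.73 for control, a difference of -0.77 ± 0.22 (SE, limma adjusted p = 0.10). Averaged over the 8 probe sets, Spred1 differed by -0.46 ± 0.17 (SE) and did not pass (limma adjusted p = 0.197). The plot of probe sets by array sets Spred1 beside both receptors.

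**Figure D2:**
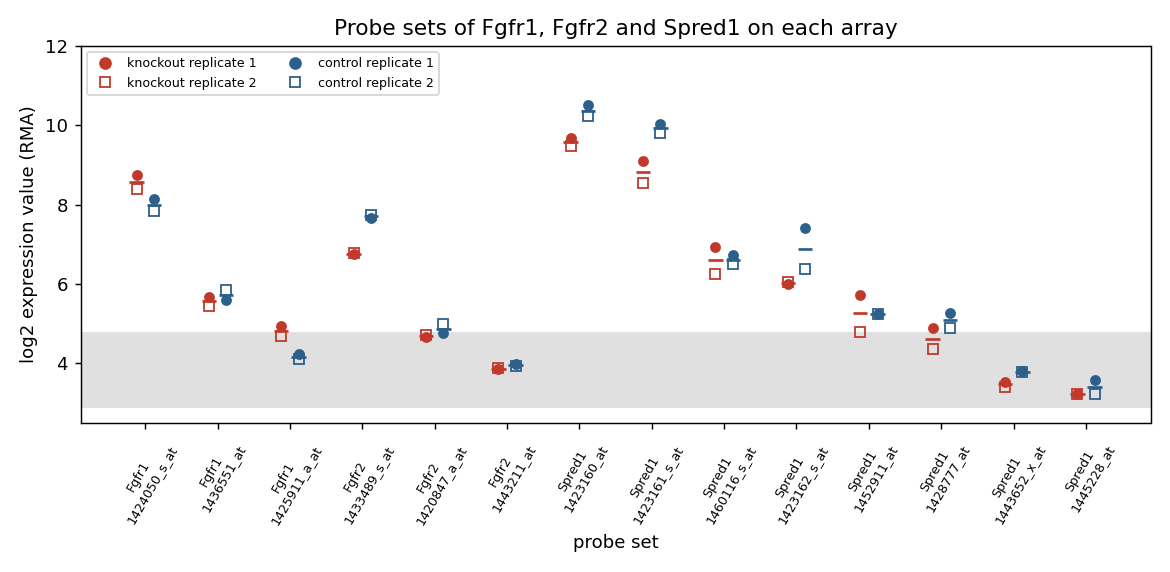
Log2 expression value (vertical axis) of every probe set of Fgfr1 (3), Fgfr2 (3) and Spred1 (8) on the 2 knockout arrays (red) and 2 control arrays (blue), replicate 1 filled and replicate 2 open, with group means as bars and the background range of 2.91 to 4.77 shaded. The fall of Fgfr2 is seen at 1433489_s_at, that of Spred1 at 1423160_at with like values at 1423161_s_at, while the group means of 1460116_s_at differ by -0.01.

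The Sprouty genes, whose products block RAS activation below receptor tyrosine kinases, did not pass. Spry2 lay at 9.65 and 9.71 on the knockout arrays, against 9.76 and 9.59 for control at its brightest probe set, 1436584_at. The knockout values lay between the control values, and the difference of 0.00 ± 0.14 (SE) had a 95% interval of -0.32 to 0.33 (limma adjusted p = 0.994). Its other probe set, 1421656_at, read 4.96 and 5.07 against 4.98 and 5.49, also overlapping. The interval of Spry2 does not reach the differences measured for Fgfr2, Dusp6 and Spred1. Its sign changed with the scaling, to -0.01 when arrays were centred on their medians.

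Spry4 lay at 8.07 and 8.11 on the knockout arrays, against 8.04 and 8.23 for control at 1445669_at, again with the knockout inside the range of the control (-0.04 ± 0.14, SE, 95% interval -0.37 to 0.28, limma adjusted p = 0.904). Its dimmer probe sets pointed both ways. Probe set 1440867_at read 6.68 and 6.61 against 6.26 and 6.47, and 1422021_at read 6.06 and 5.96 against 6.22 and 6.66. Neither passed (adjusted p = 0.314 and 0.239 over all single-gene probe sets). The fourth, 1422020_at, was within background on all arrays.

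Etv4 and Etv5 encode ETS transcription factors of the PEA3 family that FGF signalling induces. Etv4 was higher on both knockout arrays, with 8.998 and 8.78 on the knockout arrays, against 8.09 and 8.46 for control at 1423232_at. The groups did not overlap, but the difference of 0.61 ± 0.17 (SE, 95% interval 0.21 to 1.02) missed the threshold (limma adjusted p = 0.0822). Its other probe set, 1443381_at, was within background on all arrays. Etv5 lay at 11.36 and 10.89 on the knockout arrays, against 11.34 and 11.58 for control at 1428142_at. Knockout replicate 1 fell between the control arrays and knockout replicate 2 below them (-0.34 ± 0.19, SE, 95% interval -0.79 to 0.10, limma adjusted p = 0.333). Probe set 1450082_s_at read 7.69 and 6.91 against 7.02 and 8.10, and 1420998_at read 6.76 and 6.52 against 6.23 and 6.72, both with overlapping groups.

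Among all 31 probe sets, 22 had a negative difference and 9 a positive one, with a median of -0.18 against -0.01 over all single-gene probe sets. The probe sets of a gene share their transcript and are not independent. Above background on all 4 arrays were 22 of them, 3 were within background on some arrays and 6 on all. The groups did not overlap for 17 of the 31, where 51.5% of all single-gene probe sets did not overlap. At an unadjusted limma p under 0.05 there were 8 of 31, against 21.7% of all probe sets. Of 21 gaps between the brightest and another probe set of the same gene, 0 passed (limma, smallest adjusted p = 0.0623), 9 had an unadjusted p under 0.05, and over all genes 0.985% of gaps passed and 24.9% had such an unadjusted p. Over all genes, 37 of the gaps that passed were larger in the knockout and 128 were smaller. The median gap difference was -0.08 for the members and -0.09 over all genes.

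**Figure D3:**
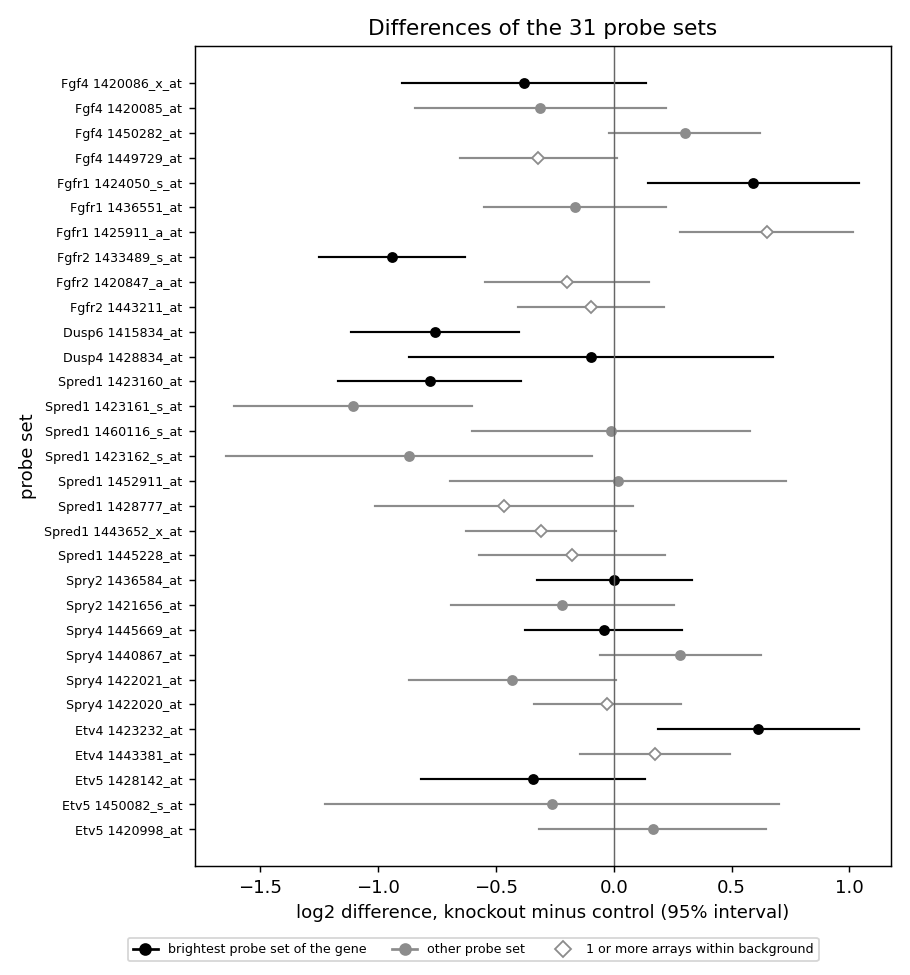
Log2 difference, knockout minus control (horizontal axis), of each of the 31 probe sets with its 95% interval from limma; black marks the brightest probe set of a gene, grey the others, and open diamonds those with 1 or more arrays within background. The intervals of Fgfr2 1433489_s_at (-1.25 to -0.63), Dusp6 and 3 probe sets of Spred1 lie below 0, and those of Etv4 1423232_at and 2 probe sets of Fgfr1 lie above 0, before any adjustment.

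The 3 genes that fell did so in the arrays with the smaller Actb gap of 1.11 and 0.80. The part of this gap in the 3 falls was not tested. The trend removed next uses genomic span, introns included, and is no test of it. When each array's trend with the genomic span and level of genes was removed, Fgfr2 differed by -0.75 ± 0.13 and Dusp6 by -0.95 ± 0.13 (SE, limma adjusted p = 0.0394 and 0.0265). Spred1 then differed by -0.56 ± 0.14 (SE) and did not pass (limma adjusted p = 0.0778). Of the 19 feeder markers 8 had a positive and 11 a negative difference, with a median of -0.26. In limma 0 of them passed and 2 had an unadjusted p under 0.05, where 23.9% of all genes had one. At 1423160_at, Spred1 was lower in the knockout and higher in replicate 1 of each group, as were the feeder marker means. Fgfr2 and Dusp6 were lower in the knockout without this order of replicates. The part of feeder cells in the 3 falls was not tested. Among 10 markers of primitive endoderm, where Fgfr2 is prominent, 0 passed in either direction, with a median difference of 0.02. An unadjusted limma p under 0.05 was found for 2 that moved in opposite directions. These were Pdgfra at -0.84 (limma adjusted p = 0.0550, the smallest) and Sox17 at 0.40, with 2 arrays of Sox17 within background. Of the 10, 5 lay above background on every array and 2, Sox7 and Cubn, were within background on all 4. Of the 10 ES cell markers 4 rose (Pou5f1, Nanog, Esrrb and Utf1) and 0 fell, where 1.98% of all genes were called higher and 2.17% lower. In a check added after seeing the data, 3 passed with the probe sets of a gene averaged, 4 under each of the other alternatives with all arrays, and 0 to 1 with an array left out, where the smallest of the 4 differences was 0.77. Tested among all single-gene probe sets, Utf1 passed (limma adjusted p = 0.0285). Pou5f1, Nanog and Esrrb did not pass there (limma adjusted p = 0.0519, 0.0525 and 0.0632). The other probe sets of Esrrb differed by 0.10 and 0.74. The part of the ES cell markers in the 3 falls was not tested.

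Other genes of the pathway came from lists arranged by role, with 95 of 105 measured at a single-gene probe set. Of these, 1 rose, 3 fell and 91 did not pass, a share near the background of 4.14%, and their median difference was -0.01. The split was 3 higher and 3 lower after further quantile normalization and 0 higher and 4 lower with arrays centred on their medians. All 4 called genes were among 15 adaptors and RAS regulators, whose median was -0.25. The scaffold gene Gab1, which couples FGF receptors to SHP2 and PI3 kinase, lay at 11.04 and 10.69 on the knockout arrays, against 11.77 and 11.60 for control (-0.82 ± 0.16, SE, limma adjusted p = 0.0453). Its other probe sets differed by -0.44 and -0.85. The RAS GTPase-activating protein gene Rasa2 lay at 7.18 and 7.08 against 7.85 and 7.94 (-0.77 ± 0.13, SE, limma adjusted p = 0.0387), while its other probe set differed by 0.63. A second such gene, Rasa1, lay at 9.50 and 9.31 against 10.06 and 10.10 (-0.68 ± 0.14, SE, limma adjusted p = 0.0473), with other probe sets at 0.10 and 0.52.

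The adaptor gene Shc1, which links receptors to GRB2, rose, with 8.41 and 8.12 on the knockout arrays and 7.59 and 7.52 for control (0.71 ± 0.15, SE, limma adjusted p = 0.0490), and its dimmer probe set differed by -0.09. With any 1 array left out 0 of these 4 passed, while Gab1 differed by -0.997 to -0.65, Rasa2 by -0.82 to -0.72, Rasa1 by -0.78 to -0.58 and Shc1 by 0.57 to 0.86. None of the 4 passed with the span trend removed or with the probe sets of a gene averaged, and Shc1 also did not pass with arrays centred on their medians (limma adjusted p = 0.0514). With an intensity trend in eBayes, 1 of the 4, Gab1, passed. Tested among all single-gene probe sets, none of the 4 passed (limma adjusted p from 0.0556 to 0.0693). These 4 genes moved in the same arrays as the Actb gap, which was 1.11 and 0.80 against 3.02 and 2.97. The span was that of the gene on the genome, introns included, so removing its trend did not test the part of this gap.

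In the other lists 0 of 80 genes passed in limma, and 24 had an unadjusted p under 0.05, where 23.9% of all genes had one. Among 21 further FGF ligands, 9 were within background on all arrays and the median difference was -0.01. The largest difference was that of Fgf7, a ligand typical of fibroblasts, at 5.75 and 5.34 on the knockout arrays, against 6.84 and 6.17 for control (-0.97 ± 0.24, SE, limma adjusted p = 0.0662). Its other probe set differed by 0.26. Replicate 1 was the higher in each group of Fgf7, as for the feeder marker means. Over all 18193 genes it was the higher for 9360 in the knockout and for 7626 in the control. The part of feeder RNA in the Fgf7 difference was not tested. Among 13 other receptors and co-receptors the median was 0.00, and the heparan sulphate proteoglycan gene Sdc4 differed most, at 9.55 and 9.53 on the knockout arrays, against 9.41 and 8.46 for control (0.60 ± 0.28, SE, limma adjusted p = 0.246), with another probe set at -0.25. The Sdc4 difference rested on control replicate 2, without which it was 0.13, and was 1.08 without control replicate 1. Of 18 listed genes of RAS, RAF, MEK and ERK, 11 were measured at single-gene probe sets, with a median of -0.14, and Map2k2, which encodes MEK2, differed most (0.56 ± 0.13, SE, limma adjusted p = 0.0611), with another probe set at -0.06. The 7 others are not analysed here.

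Among 16 other feedback inhibitors the median was 0.06, and Dusp14, a small dual-specificity phosphatase gene, differed most, at 6.59 and 6.29 on the knockout arrays, against 5.76 and 5.85 for control (0.64 ± 0.15, SE, limma adjusted p = 0.0599). Among 19 other ETS factors and ERK-responsive genes the median was 0.00, and the immediate early gene Junb differed most, at 7.62 and 7.37 against 6.63 and 6.89 (0.74 ± 0.16, SE, limma adjusted p = 0.0512). Further quantile normalization brought Junb past the threshold (0.76, limma adjusted p = 0.0417), while the calls over all genes went from 754 to 871. Junb did not pass with an intensity trend in eBayes or with the probe sets of a gene averaged. The plot of differences by role shows the members beside these lists.

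**Figure D4:**
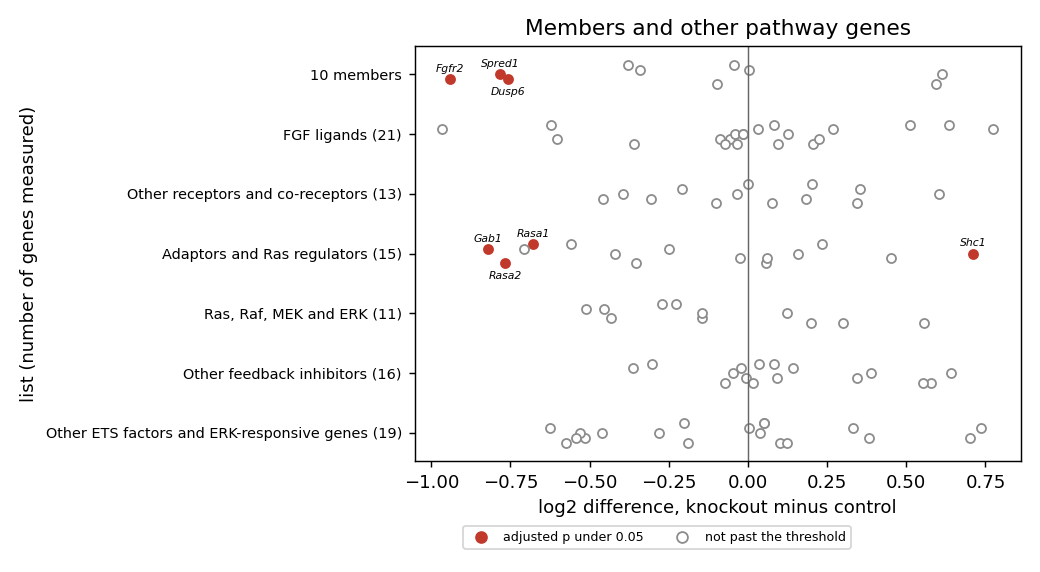
Log2 difference, knockout minus control (horizontal axis), at the brightest probe set for the 10 members and for 95 other pathway genes in 6 lists by role; filled red points passed an adjusted p of 0.05 in limma and open points did not, and the vertical offset within a list has no meaning. The called genes are Fgfr2, Spred1 and Dusp6 among the members and Gab1, Rasa2, Rasa1 and Shc1 among the adaptors and RAS regulators.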

How the data were processed

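Total RNA from 4 ES cell samples was labelled by in vitro transcription primed at the 3' end, per the labels' protocols. Deposited were log2 values for 45101 probe sets on each array, made by the authors with RMA, which per the submitters' processing notes was used with limma, both without a version. Their order and settings are not given in the sources read, and array medians lay between 4.91 and 4.95, so values were used as deposited. RMA brings the arrays' distributions close, though not equal in the deposited values, so a change common to most genes may not show.

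Probe sets were named through the platform annotation of GEO. Gene IDs matched a RefSeq table (GRCm38.p6) for 34741 of 34945 single-gene probe sets, with 0 symbols changed. Probe sets with several symbols (932), with none (9211) and 64 control probe sets were left out. Knockout and control were compared in R 4.3.3 with limma 3.58.1 (lmFit and eBayes, two-sided) without covariates, over 4 arrays, with Benjamini-Hochberg adjustment and a threshold of 0.05, by gene (brightest probe set), by probe set and by within-array gap. Each gene's error had 2 residual and 5.31 prior degrees of freedom, so the number of arrays limits precision. The ± marks limma's SE. The fit was tested on simulated data. Members and lists were chosen with earlier results of these data known. Every member is named; of each other list, up to 4 genes past the threshold, or the one with the largest difference. Alternatives were an intensity trend, quantile normalization, median centring, leaving out probe sets with a mean under 6, averaging probe sets, removing each array's loess trend (span 0.3) with genomic span, the replicate number as a block, and dropping 1 array at a time.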

Additional observations from a re-analysis of the deposited data

How the results depend on the processing

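The main count of member genes past the threshold, 3, was 1 with an intensity trend, 1 with the probe sets of a gene averaged, and 0 to 0 with any 1 array left out. The count of other pathway genes, 4, was 1 (lower) with an intensity trend, 9 (4 higher, 5 lower) without genes at a mean under 6, 0 with probe sets averaged, 1 (higher) with the span trend removed, and 0 to 0 with an array left out. All genes past the threshold numbered 754, and 481, 1224, 321 and 4 to 50 with the trend, the dim filter, averaging and an array left out. By probe set, 1 member passed, and 0 with an intensity trend, 2 with the dim filter and 0 to 0 with an array left out. Over all probe sets 276 passed (214 higher, 62 lower), against 734 (465 higher, 269 lower) after quantile normalization, 772 with the dim filter and 0 to 182 with an array left out. Gaps of members past the threshold ranged from 0 to 1 with an array left out. The share of all gaps that passed with an array left out is not given here, so that count has no background. The dim filter also made the totals smaller. It kept 68 of the other pathway genes, 9484 of all genes, 19 of the member probe sets and 14861 of all probe sets. With the replicate block, 5 member genes (2 higher, 3 lower), 25 other pathway genes (9 higher, 16 lower), 3092 genes, 5 member probe sets and 2343 probe sets passed. Fgfr1 (limma adjusted p = 0.0143) and Etv4 (0.0232) were the members added by the block. Same-numbered arrays deviated together (r = 0.29 over genes), but with 2 numbers this does not show that the numbers pair the samples. With a lone array in a group, that array was assumed to vary like the remaining pair.

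Signs changed in the following values, of which none passed in any setting. Spry2 was -0.014 with median centring, -0.11 with probe sets averaged and -0.17 with the span trend removed. Spred1 1452911_at was -0.0034 after quantile normalization. With an array left out, Dusp4 ranged from -0.60 to 0.41, Spry2 1436584_at from -0.080 to 0.085, Spry2 1421656_at from -0.47 to 0.038, Spry4 1445669_at from -0.14 to 0.050, Spry4 1422020_at from -0.070 to 0.015, Spred1 1460116_s_at from -0.36 to 0.34, Spred1 1452911_at from -0.45 to 0.49, Spred1 1445228_at from -0.36 to 0.0059, Etv5 1450082_s_at from -0.80 to 0.28 and Etv5 1420998_at from -0.078 to 0.41. Fgfr2 kept its sign and ranged from -0.97 to -0.91, Dusp6 from -0.88 to -0.64 and Spred1 1423160_at from -0.93 to -0.64. The causes were not tested. Signal near background limits 9 of the 31 probe sets.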
